A study of Mus musculus with 20 samples.

Results

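GRP3 and PFMP were compared with each other directly, library against library within each batch. They are the populations of the study that were gated on the surface antigens of oligodendrocyte progenitors. The comparison used 8 of the 20 libraries, 4 of GRP3 and 4 of PFMP, numbered by the batch that the labels give (GRP3 1 and PFMP 1 are the libraries of batch 1). It was run over the 15144 of 45705 genes that had a value of 1 or more, in RPKM (reads relative to the length of the gene and the size of the library), in 4 or more of these 8 libraries. The other 12 libraries were of neural stem cells (NSC), BNAP/GRP1 and GRP2/MP3 from the same batches, and they serve here only as a reference.

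Every library of both groups came from the periventricular zone of Swiss Webster mice at postnatal day 5, with no transgene or treatment named. Per the study's methods a litter was taken as a whole, with males and females together, so a library is a pool of pups and not an animal. GRP3 and PFMP cells were both positive for CD140a (the PDGF receptor alpha) and NG2 (a chondroitin sulfate proteoglycan) and low for CD133. They were divided by the carbohydrate LeX (CD15), which was low on GRP3 and high on PFMP cells. GRP3 stands for a glial-restricted progenitor and PFMP for a PDGF-FGF-responsive multipotential progenitor, names that come from what such cells formed in culture. The RNA was selected for polyA tails and amplified before sequencing.

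Oligodendrocyte progenitor cells (OPCs) divide in response to PDGF, which they bind through PDGFRA, and they are held in the lineage by the transcription factors OLIG1, OLIG2, SOX10 and NKX2-2. As they commit, they lose PDGFRA and NG2, pass through a stage marked by GPR17, BCAS1 and ENPP6, and then make myelin proteins such as MBP. In the neonatal subventricular zone they lie beside neural stem cells, astrocyte-like cells and neuroblasts on their way to the olfactory bulb, which carry doublecortin, stathmins and DLX factors.

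In batches 1, 2 and 4 the libraries of both populations carried OPC genes at high levels. The 18 OPC transcription factors summed to 2725, 2764 and 787 RPKM in GRP3 1, 2 and 4 and to 1817, 2738 and 446 RPKM in PFMP 1, 2 and 4. In the same batches the sum was 206 to 309 in BNAP/GRP1, 66.2 to 354 in GRP2/MP3 and 213 to 448 in NSC. The 30 OPC membrane and secreted proteins summed to 4217, 4669 and 1883 RPKM in GRP3 and to 3877, 3506 and 1735 RPKM in PFMP, and to no more than 616 in the other populations. The transcription factors of PFMP 4 were therefore no higher than those of the highest NSC library (448), while all other GRP3 and PFMP libraries of these batches were above every other population on both lists.

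Batch 3 went against the labels, and its values are also reported apart. It stays in the test and, where not stated otherwise, in the means, list medians and counts. There the same transcription factors summed to 34.6 RPKM in GRP3 3 and 36.7 in PFMP 3, and the membrane and secreted proteins to 44.1 and 49.4. GRP3 3 had 3.41 RPKM of Pdgfra, 0.245 of Cspg4 (which encodes NG2) and 1.18 of Olig2, and PFMP 3 had 3.84, 0.398 and 2.19. In their place both libraries were full of globin and myeloid RNA. Over a mean of 4 batches, a batch 3 difference near 0 pulls the mean towards 0, so counts without batch 3 are given beside those of the main lists. In the neuroblast and neurite lists below, the batch 3 median was not near 0, at -0.52 and -1.11.

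**Figure D1:**
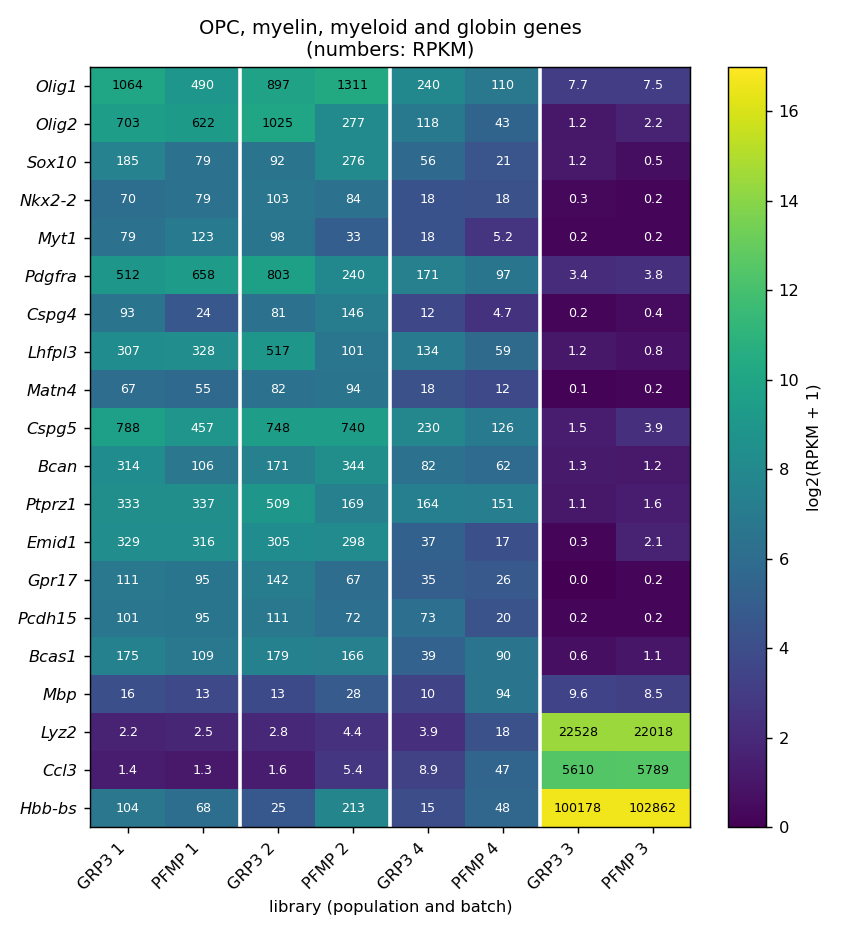
Level of 20 genes in each of the 8 libraries, coloured by log2(RPKM + 1) with the RPKM printed in each cell. The libraries are ordered by batch with batch 3 last. From Olig1 to Bcas1 the genes are high in batches 1 and 2, lower in batch 4 and near 0 in batch 3, where Lyz2 and Hbb-bs reach 22018 RPKM or more. Mbp is highest in PFMP 4, at 93.6 RPKM.

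The libraries also differed in technical measures. RPKM sums lay between 977557 and 1739697. Read totals were not in the table, but whole-number ratios among low values gave a depth relative to GRP3 1, which was 0.678, 3.2 and 0.966 in GRP3 2, 3 and 4 and 0.413, 0.723, 3.93 and 3.46 in PFMP 1 to 4. Absolute depth is unknown, so no counting interval is given. GRP3 4 had a low signal spread over many genes. Of 13279 genes at 0 in both populations in batches 1 and 2, 8245 were above 0 in GRP3 4, against 1494 in PFMP 4. Mitochondrial transcripts took 44.4% of the RPKM sum in PFMP 4 and 9.25% in GRP3 4, and between 8.06% and 15% in the other 6 libraries.

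Likeness was high within a batch. Pearson's r of log2(RPKM + 1) between GRP3 and PFMP over the 15144 genes (genes are no independent replicates) was 0.896, 0.803, 0.976 and 0.837 in batches 1 to 4. In batch 1 each was closer to the other than to any of the remaining populations, with r from 0.659 to 0.821 for those. Batch 2 did not show this, since GRP3 2 had an r of 0.816 with GRP2/MP3 2. In batch 4 both were closer to GRP2/MP3 4 (0.878 for GRP3, 0.896 for PFMP) than to each other. GRP3 2 was also nearly as close to PFMP 1, at 0.935, as to GRP3 1, at 0.943, while PFMP 1 and PFMP 2 had an r of 0.768.

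Genes shared by GRP3 and PFMP and low elsewhere were found by a score, the lower of the GRP3 and PFMP levels minus the highest of the other 3 populations in the batch, taken at its smallest over batches 1, 2 and 4. The score was above 0 for 257 of the 15144 genes and above 1 on the log2 scale for 19. These levels chose the genes and are given as a description, with no test. Pdgfra led (score 1.96, chromosome 5 of GRCm38 from 75152292 to 75198215). It measured 512, 803, 3.41 and 171 RPKM in GRP3 1 to 4 and 658, 240, 3.84 and 96.9 RPKM in PFMP 1 to 4. The highest value in another population in batches 1, 2 and 4 was 24.1 RPKM. GRP3 was the higher in batches 2 and 4 and PFMP in batches 1 and 3, so the groups overlapped.

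Several of the next genes encode neural adhesion and receptor proteins. Cntn1, a contactin of the axon and glial surface, had a score of 1.77, with 137, 228, 0.602 and 241 RPKM in GRP3 and 533, 102, 0.744 and 102 RPKM in PFMP. Lhfpl3, a tetraspan protein widely used as an OPC marker, had a score of 1.41, with 307, 517, 1.17 and 134 RPKM in GRP3 and 328, 101, 0.808 and 59 RPKM in PFMP. In both genes batch 1 favoured PFMP and batches 2 and 4 favoured GRP3. Gria2, the AMPA receptor subunit that limits calcium entry, scored 1.14. It gave 134, 179, 0.802 and 79 RPKM in GRP3 and 107, 88.8, 0.494 and 48.1 RPKM in PFMP, higher in GRP3 within each of the 4 batches.

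Other genes among the 20 with the highest scores were Nap1l5, A930009A15Rik, Cdo1, Fam155a, Tmem255b, Resp18, 3110035E14Rik, Slitrk2, Omg, Arxes1, Cdh13, Enpp2, Nell2, Pnlip and Zfp566, with scores from 1.65 down to 0.98. Their mean differences between GRP3 and PFMP ran from -0.40 for Nell2 to 0.61 for Omg (oligodendrocyte myelin glycoprotein). For Omg the values were 127, 137, 0.239 and 55.7 RPKM in GRP3 and 63.3, 69.9, 0.0898 and 45.5 RPKM in PFMP, and GRP3 was higher in every batch. Fam155a, an auxiliary subunit of the sodium leak channel, was close to equal in batches 1, 2 and 4, with 46.2, 52.5 and 23 RPKM in GRP3 and 46.1, 39.2 and 24.3 in PFMP.

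The test across genes found 1 difference. The model was limma's moderated test on log2(RPKM + 1) with the batch as a block, with Benjamini-Hochberg adjustment over the 15144 genes. At an adjusted p under 0.05, 1 gene was called higher in GRP3 (0.0066% of those tested) and 0 higher in PFMP (0%). With p under 0.05 before adjustment there were 234 genes higher in GRP3 (1.55%) and 55 higher in PFMP (0.363%), of which 92 and 35 were protein-coding. The split towards GRP3 depended on scaling. It was 138 to 98 after median-of-ratios scaling and 135 to 129 after quantile normalization, and the median difference over all genes moved from 0.11 to 0.02 and to 0. By direction alone, 1052 genes (6.95%) were higher in GRP3 in all 4 batches and 268 (1.77%) higher in PFMP. Without batch 3 these were 2249 (14.9%) and 517 (3.41%). Such shares over all genes are the reference for the counts by direction in every list below. The excess towards GRP3 was lost with median-of-ratios scaling, at 578 and 579 genes, and was smaller with quantile normalization, at 712 and 601. Per the study the pups of a litter were pooled and the 4 batches were independent experiments. With 4 batches an exact permutation test of a single gene could not go below a two-sided p of 0.125.

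The called gene was n-R5s205, an annotated copy of the 5S ribosomal RNA, 1 of 180 genes named n-R5s. It had 18.5, 13.6, 20.2 and 28.7 RPKM in GRP3 1 to 4 and was listed at 0 in all 4 PFMP libraries. All GRP3 libraries lay above all PFMP libraries, with a mean difference of 4.36 ± 0.42 (SD, n = 4 batches, limma SE 0.34, adjusted p = 0.0431) that depends on the pseudocount of 1. The smallest whole numbers that fit these levels were 2, 1, 7 and 3 reads, 13 in all. Absolute depth is unknown, so the true numbers may be larger. Leaving out any 1 batch ended the call, with an adjusted p of 0.061, 0.147, 0.356 and 0.58 without batch 1, 2, 3 and 4. Elsewhere the gene was at 106 RPKM in BNAP/GRP1 3, 90 in GRP2/MP3 2 and 0 in 7 of the other 12 libraries.

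The gene lies on chromosome 2 of GRCm38 from 120640711 to 120640835 on the minus strand, inside Stard9 on the plus strand and outside its annotated exons. Its sequence in GENCODE vM21 is shown because the single call rests on it, 5′ to 3′, with the longest stretch that it shares letter for letter with another of the 179 copies (n-R5s50) in capitals.
n-R5s205: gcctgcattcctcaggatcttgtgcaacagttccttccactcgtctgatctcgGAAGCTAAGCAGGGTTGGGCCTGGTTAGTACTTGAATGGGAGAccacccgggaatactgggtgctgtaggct
The shared stretch is 43 of 125 bases, from base 54 to base 96, and 68 copies share at least 20 bases in a row with it. Since the counting of reads that fit several copies, and the strand, are not stated for the RPKM, reads of this gene may be split with its copies or come from the Stard9 transcript.

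The gene with the second smallest adjusted p was Mir8091 (adjusted p = 0.233), at chr19:41588651-41588789 on the plus strand. It had 8.24, 24.3, 84.9 and 25.6 RPKM in GRP3 (1, 2, 33 and 3 reads as the smallest whole numbers) and 0 in the 4 PFMP libraries. Most of its reads were in GRP3 3. The mature microRNA of RefSeq (GRCm38.p6) is shown to identify the locus, with its seed, bases 2 to 8, in capitals. The libraries held polyA RNA, so the reads are of the precursor's locus and not a measure of the mature form.
mmu-miR-8091: aGGAGUGAgugguaagcuggug
Both genes, with the pseudogene Gm17014 and the small RNA gene Gm27956, made up the 4 genes that were above 0 in every GRP3 library and at 0 in every PFMP library, and 0 genes had the opposite pattern. Every other tested gene had an adjusted p of 1, which covers all genes named from here on that passed the filter.

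The difference between GRP3 and PFMP did not repeat between batches. Across the 15144 genes the GRP3 minus PFMP difference of batch 1 correlated with that of batch 2 at r = -0.365 and with that of batch 4 at r = -0.194, and that of batch 2 with batch 4 at r = 0.0819. Only 36.9% of the genes had the same sign in batches 1 and 2. Base composition moved with these differences. Spearman's rho between a gene's GC content and its difference was 0.35 in batch 1, -0.31 in batch 2, 0.02 in batch 3 and -0.13 in batch 4 (15067 genes). Adjusting each library for GC content, a setting chosen after seeing the data, left 1 call. In batch 4 the direction depended on the level, since 69.7% of genes with a mean RPKM under 10 were higher in GRP3 4 but 37.4% of those at 10 or more. That goes with the spread low signal of GRP3 4. How much these measures contributed to single genes was not tested.

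**Figure D2:**
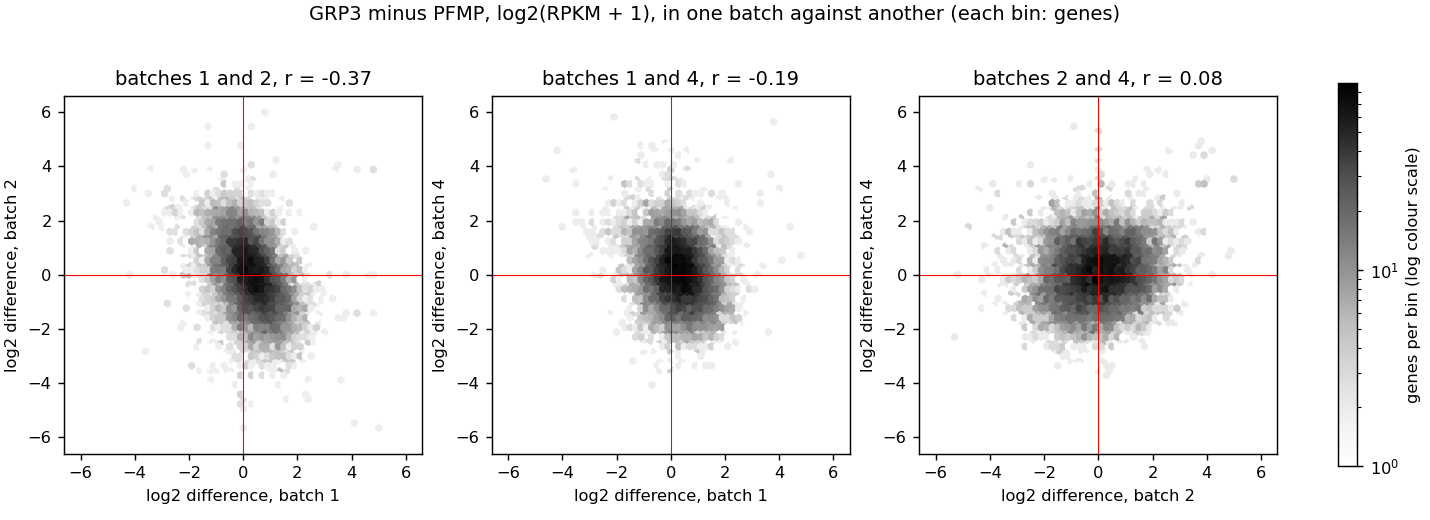
GRP3 minus PFMP difference of each gene on the log2(RPKM + 1) scale in one batch (x) against another (y) for batches 1, 2 and 4. The shade gives the number of genes in a bin on a log scale, and 89 genes beyond 6 in one of these batches are outside the axes. The cloud of batches 1 and 2 slopes downwards (r = -0.365), and that of batches 2 and 4 has little slope (r = 0.0819).

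Among the antigens used for sorting, no gene of 5 had the same direction in all 4 batches (median difference 0.34). Cspg4 gave 93.2, 80.9, 0.245 and 11.7 RPKM in GRP3 and 23.5, 146, 0.398 and 4.7 RPKM in PFMP. GRP3 was above PFMP in batches 1 and 4 and below it in batches 2 and 3, and the ranges overlapped. Prom1, which encodes CD133, gave 10.9, 8.92, 0.991 and 12.9 RPKM in GRP3 and 7.6, 5.12, 0.255 and 18.2 RPKM in PFMP.

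LeX is a sugar and not a gene product, so its makers were followed instead. Fut9, the fucosyltransferase that makes most LeX in the brain, had 13.2, 14.9, 0.08 and 7.94 RPKM in GRP3 and 11.8, 7.13, 0.112 and 7.72 RPKM in PFMP. It was not higher in the LeX-high population in batches 1, 2 or 4, and its mean difference was 0.28 ± 0.47 (SD, n = 4 batches). Fut4, the other LeX-forming fucosyltransferase of the list, was at or below 1.74 RPKM in all 8 libraries and at 0.0164 in PFMP 4. Over the 23 tested genes of LeX synthesis and turnover, 7 were higher in GRP3 in all 4 batches (10 without batch 3) and 0 in PFMP, with a median difference of 0.24 beside 0.11 over all genes. Of the 7, Fuk, the fucose kinase, had the smallest p, with 3.16, 2.75, 1.94 and 1.35 RPKM in GRP3 and 1.18, 1.21, 0.302 and 0.952 RPKM in PFMP. The count was 3 in GRP3 and 2 in PFMP under either scaling.

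OPC transcription factors had a median difference of 0.37 (18 genes), with 0.52, 0.15, -0.04 and 1.04 in batches 1 to 4. Over all genes the medians by batch were 0.313, 0.00578, 0 and 0.117. Of the 18, 2 were higher in GRP3 in all batches and 1 in PFMP (7 and 1 without batch 3). The shares over all genes were 6.95% and 1.77% (14.9% and 3.41% without batch 3). The founders of the lineage varied by batch. Olig1 had 1064, 897, 7.7 and 240 RPKM in GRP3 and 490, 1311, 7.54 and 110 RPKM in PFMP, and Olig2 had 703, 1025, 1.18 and 118 RPKM in GRP3 and 622, 277, 2.19 and 42.9 RPKM in PFMP. In batch 2 PFMP was the higher for Olig1 and GRP3 for Olig2, so the paired factors moved in opposite directions between the same libraries. Sox10, the factor that drives the myelin programme, followed Olig1, with 185, 92.2, 1.19 and 55.9 RPKM in GRP3 and 78.7, 276, 0.545 and 21 RPKM in PFMP.

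Nkx2-2, a homeodomain factor, had the smallest SD between batches of the 18. It measured 70.2, 103, 0.315 and 18.3 RPKM in GRP3 and 79, 83.8, 0.25 and 17.8 RPKM in PFMP, a mean difference of 0.06 ± 0.19 (SD, n = 4 batches) that turned to -0.05 with median-of-ratios scaling. Sox8, a close relative of Sox10, was higher in GRP3 in all 4 batches, with 27.3, 29.9, 0.709 and 37.6 RPKM against 10.5, 28.6, 0.338 and 11.8 RPKM in PFMP. Sox6, which holds OPCs back from maturing, was the other such factor (0.42 ± 0.39).

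Hes5, a Notch target that keeps progenitors from differentiating, was the 1 factor higher in PFMP in all batches. It had 59.2, 59.3, 1.66 and 11 RPKM in GRP3 and 103, 101, 2 and 23.9 RPKM in PFMP. PFMP was above GRP3 within each batch, although the ranges overlapped across batches, and the mean difference was -0.69 ± 0.38 (SD, n = 4 batches). Dll1, a Notch ligand, went the other way. It had 42.8, 66.2, 0.538 and 19.9 RPKM in GRP3 and 19.3, 7.53, 0.316 and 5.82 RPKM in PFMP, 1.48 ± 1.15 higher in GRP3 on the log2 scale (SD, n = 4 batches) with the same sign in each batch. The ligand Dll3 had 213, 157, 2.05 and 58.1 RPKM in GRP3 and 114, 368, 0.6 and 17.3 RPKM in PFMP, with PFMP higher in batch 2. Hes1, another Notch target, was higher in GRP3 in all 4 batches (0.58 ± 0.29).

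The OPC membrane and secreted proteins had a median difference of 0.25 (29 of 30 tested), and 0.22, 0.02, -0.12 and 0.83 in batches 1 to 4. In batch 1 the list was below the median of all genes, 0.313. The median of the list was 0.07 without batch 1 and 0.06 without batch 4. In GRP3, 7 of the 29 were higher without batch 3 and 2 in all batches, and 0 in PFMP. Over all genes 14.9% and 6.95% were higher in GRP3, so the count over all batches was near the share of all genes. The 2 were Pcdh15, a protocadherin, and Ptpro, a receptor tyrosine phosphatase. Ptpro had 23.7, 20, 5.55 and 19.1 RPKM in GRP3 and 14.5, 10.3, 5.34 and 9.48 RPKM in PFMP, and the libraries of batches 1, 2 and 4 did not overlap. Matn4, a matrilin of the extracellular matrix, differed little. It had 66.8, 82, 0.11 and 17.9 RPKM in GRP3 and 55.4, 93.5, 0.193 and 12.4 RPKM in PFMP. Emid1 had 329, 305, 0.252 and 37.2 RPKM in GRP3 and 316, 298, 2.09 and 16.7 RPKM in PFMP, near equal in batches 1 and 2 and not in the others. The proteoglycan Bcan differed in both directions, with 314 and 171 RPKM in GRP3 1 and 2 and 106 and 344 in PFMP 1 and 2.

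Genes of the next stages of the lineage had medians near 0 over members that went both ways. Committed precursor genes had a median difference of -0.07 (16 tested), and myelin genes 0.11 (10 tested of 18), which turned to -0.01 and -0.10 under the 2 scalings. Gpr17, a receptor of the committed stage, had 111, 142, 0.0392 and 35 RPKM in GRP3 and 94.8, 66.9, 0.201 and 25.7 RPKM in PFMP. Enpp6, an enzyme of newly forming oligodendrocytes, was lower in GRP3 in batches 1, 2 and 4. It had 1.05, 1.41, 0 and 4.19 RPKM in GRP3 and 14, 3.94, 0 and 20.2 RPKM in PFMP. The ranges overlapped, and the mean difference was -1.49 ± 1.24 (SD) over 4 batches and -1.98 ± 0.92 over batches 1, 2 and 4.

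PFMP 4 stood above the rest for some of these genes. Mbp, a main protein of the myelin sheath, had 16.4, 13.3, 9.56 and 10.3 RPKM in GRP3 and 12.6, 27.8, 8.46 and 93.6 RPKM in PFMP. PFMP was higher in batches 2 and 4 and GRP3 in batches 1 and 3. Tcf7l2, a factor of the committed stage, had 266 RPKM in PFMP 4 against 53.5 in GRP3 4, and 14 and 17.4 in PFMP 1 and 2.

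**Figure D3:**
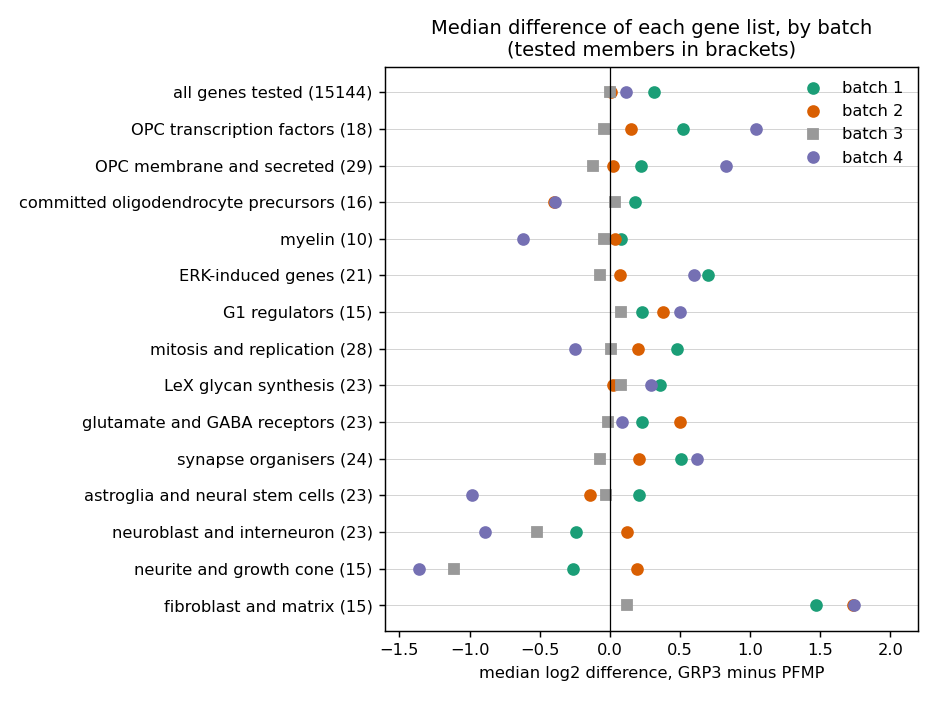
Median log2 difference, GRP3 minus PFMP, of each gene list in each batch, with the median over all genes tested in the top line. Points to the right of 0 are higher in GRP3. Batch 3 (squares) lies near 0 for most lists, with -1.11 for neurite genes and -0.52 for neuroblast genes being the farthest. The fibroblast and matrix list, chosen after the values were seen, lies at 1.47, 1.73 and 1.74 in batches 1, 2 and 4.

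PDGF and FGF, the factors that PFMP is named for, act through a small family of receptors. Of 16 tested ligands, receptors and adaptors of the PDGF and FGF families, 2 were higher in GRP3 in all 4 batches (Fgf9 and Fgf12) and 0 in PFMP. Over all genes these shares were 6.95% and 1.77%. The median difference of the list was 0.14, beside 0.11 over all genes. Without batch 3 the count of the list was 3 in each direction, and under either scaling it was 0 in each over 4 batches. Pdgfa, the ligand of PDGFRA, had 32, 28.6, 23 and 16 RPKM in GRP3 and 27.8, 54.9, 19.9 and 13.7 RPKM in PFMP. Fgfr1 had 8.85, 11.6, 4.52 and 6.08 RPKM in GRP3 and 12.9, 6.66, 3.57 and 4.11 RPKM in PFMP. Fgfr3, an FGF receptor of glial progenitors, had 7.37, 6.58, 0.0906 and 4.04 RPKM in GRP3 and 8.88, 2.34, 0.142 and 4.25 RPKM in PFMP. For both receptors the direction differed between batches 1 and 2.

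Genes that ERK signalling induces leaned towards GRP3 in batches 1 and 4. The 21 tested members had a median difference of 0.34, with 0.70, 0.07, -0.07 and 0.60 in batches 1 to 4. Over all genes the medians by batch were 0.313, 0.00578, 0 and 0.117. Only Egr1, an immediate early transcription factor, was higher in GRP3 in all 4 batches, and 8 of the 21 were without batch 3, with 0 higher in PFMP either way. Egr1 had 674, 1117, 9.34 and 58.9 RPKM in GRP3 and 482, 259, 8.79 and 19.7 RPKM in PFMP, a mean difference of 1.05 ± 0.93 (SD, n = 4 batches). Spry1, a feedback inhibitor of receptor tyrosine kinases, had 111, 154, 1.02 and 21.2 RPKM in GRP3 and 74.3, 52, 1.81 and 5.95 RPKM in PFMP. Dusp6, the ERK phosphatase, had 35.3, 47.7, 9.67 and 13.7 RPKM in GRP3 and 53.3, 21.7, 9.48 and 11.4 RPKM in PFMP, with no common direction.

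Cell cycle genes were measured at similar summed levels in both. Mitosis and replication genes had a median difference of 0.01 over 28 genes, and summed to 1149, 1249 and 528 RPKM in GRP3 1, 2 and 4 and to 915, 1010 and 633 in PFMP 1, 2 and 4. Top2a had 59.1, 46.9, 6.48 and 64.9 RPKM in GRP3 and 33, 74.4, 6.29 and 48.4 RPKM in PFMP. Among the D-type cyclins, Ccnd2 was higher in PFMP in all 4 batches, with 106, 91.7, 24.3 and 35.4 RPKM in GRP3 and 176, 94.9, 28.8 and 341 RPKM in PFMP. The batch 2 values were nearly equal and batch 4 gave most of its mean difference of -1.06 ± 1.47 (SD). Ccne1, Ccne2 and Cdk2, which act at the entry to S phase, were higher in GRP3 in all 4 batches, by 0.55, 0.33 and 0.42. Without batch 3, 4 G1 regulators were higher in GRP3 and 1 in PFMP. Under either scaling no more than 1 of the 15 tested G1 regulators kept 1 direction in GRP3.

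OPCs are known to receive synapses from neurons. Transmitter receptor genes were expressed in both populations in batches 1, 2 and 4. Glutamate and GABA receptor genes had a median difference of 0.25 (23 tested), and 3 of them, Gria2 and Grik2 included, were higher in GRP3 in all batches and 0 in PFMP. The counts were 7 and 1 without batch 3, 1 and 1 with median-of-ratios scaling and 2 and 1 with quantile normalization. Grik2, a kainate receptor subunit, had 8.23, 9.87, 0.185 and 6.65 RPKM in GRP3 and 5.26, 1.38, 0.161 and 2.52 RPKM in PFMP. Gabra2 leaned to PFMP, with 6.88, 6.68, 0.0219 and 12 RPKM in GRP3 and 10.1, 15.9, 0.0209 and 45.7 RPKM in PFMP. Of 24 synapse organisers, 3 were higher in GRP3 in all batches (Lrrtm2, Slitrk1 and Il1rapl1), 6 without batch 3, and 0 in PFMP. Their median difference was 0.22, beside 0.11 over all genes. For both lists the shares over all genes were 6.95% in GRP3 and 1.77% in PFMP in all batches.

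Collagen and decorin genes were among those with the largest mean differences towards GRP3. Among protein-coding genes with 1 direction in all batches and a mean of at least 10 RPKM in a population, 383 were higher in GRP3 and 141 in PFMP. Dcn, Col3a1 and Col1a2 headed the first group. Dcn encodes decorin, a small proteoglycan that binds collagen (chromosome 10 from 97479609 to 97518143). It had 24.6, 30.9, 9.5 and 39 RPKM in GRP3 and 10.8, 0.714, 4.66 and 7.39 RPKM in PFMP, a mean difference of 2.12 ± 1.52 (SD, n = 4 batches). Within batches GRP3 was always higher, and GRP3 3 was the 1 GRP3 library below the highest PFMP library.

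The fibrillar collagens gave the same order. Col1a2, a chain of type I collagen (chromosome 6 from 4504814 to 4541544), had 27.4, 21.3, 13.4 and 15.6 RPKM in GRP3 and 5.11, 3.29, 11.4 and 1.69 RPKM in PFMP. All 4 GRP3 libraries were above all 4 PFMP libraries, and the mean difference was 1.86 ± 1.11 (SD), or 2.41 ± 0.21 without batch 3. Col3a1, the chain of type III collagen (chromosome 1 from 45311538 to 45349706), had 13.4, 12.2, 14.1 and 13 RPKM in GRP3 and 2.95, 0.817, 12.5 and 0.658 RPKM in PFMP. Both were near equal between the populations in batch 3, where the NSC, BNAP/GRP1 and GRP2/MP3 libraries had similar levels (10.5 to 14.8 RPKM of Col3a1). The collagens were not particular to GRP3 among all populations either, with up to 30.4 RPKM of Col3a1 and 20.4 of Col1a2 elsewhere in batches 1, 2 and 4. Dcn did not share this, with at most 7.1 RPKM in the NSC, BNAP/GRP1 and GRP2/MP3 libraries of those batches.

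A list of 16 genes of fibroblasts and matrix was then drawn up after these values were seen, and is a description. Of its 15 tested members 7 were higher in GRP3 in all 4 batches (11 without batch 3) and 0 in PFMP, with a median difference of 1.52, and of 1.37 and 1.24 under the 2 scalings. The list summed to 351, 240 and 271 RPKM in GRP3 1, 2 and 4. In the same batches it summed to 613 to 888 in NSC, 346 to 1119 in GRP2/MP3 and 133 to 526 in BNAP/GRP1. Igf2, a growth factor of embryonic and meningeal mesenchyme, had 116, 56.9, 0.0674 and 16.8 RPKM in GRP3 and 10.7, 2.86, 0.361 and 1.88 RPKM in PFMP. Foxc1, a transcription factor of the meninges, had 6.85, 6.37, 0.085 and 2.78 RPKM in GRP3 and 1.75, 1.21, 0.139 and 0.0423 RPKM in PFMP. The GABA transporter Slc6a13, found in leptomeningeal cells, had 21.4, 14.5, 0 and 4.14 RPKM in GRP3 and 3.11, 0.949, 0.248 and 0.364 RPKM in PFMP.

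All 3 were higher in GRP3 in batches 1, 2 and 4 and lower in batch 3. Pcolce, which helps to process procollagen, had 10.9, 4.17, 3.35 and 11 RPKM in GRP3 and 1.46, 0.0832, 1.4 and 3.32 RPKM in PFMP, higher in GRP3 in each batch. The list was not uniform. Sparc had 106, 73.8, 36.4 and 133 RPKM in GRP3 and 44.9, 59.5, 29.7 and 386 RPKM in PFMP, and it made the summed level of the list larger in PFMP 4 (417 RPKM) than in GRP3 4 (271). Fibroblasts also express Pdgfra, one of the genes behind the gate, and fewer cells of a type and less RNA per cell cannot be told apart in these bulk libraries. The part of such cells in the result was not tested.

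Genes of blood vessels were low in both. Vtn, the vitronectin gene that marks pericytes in brain, had 20.6, 13.8, 0 and 8.56 RPKM in GRP3 and 2.61, 1.15, 0 and 1.44 RPKM in PFMP. Its pattern was that of the matrix genes, but the pericyte genes Pdgfrb, Kcnj8 and Abcc9 were at or below 1.59 RPKM in all 8 libraries. Itm2a, from the endothelial list, had 17.6, 18.7, 1.43 and 0.778 RPKM in GRP3 and 6.9, 3.58, 0.594 and 0.0225 RPKM in PFMP. The endothelial genes Cdh5, Tek and Tie1 did not exceed 1.56 RPKM in any of the 8. In all, 6 of 14 pericyte genes and 7 of 15 endothelial genes were tested, with median differences of 0.56 and 0.41.

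**Figure D4:**
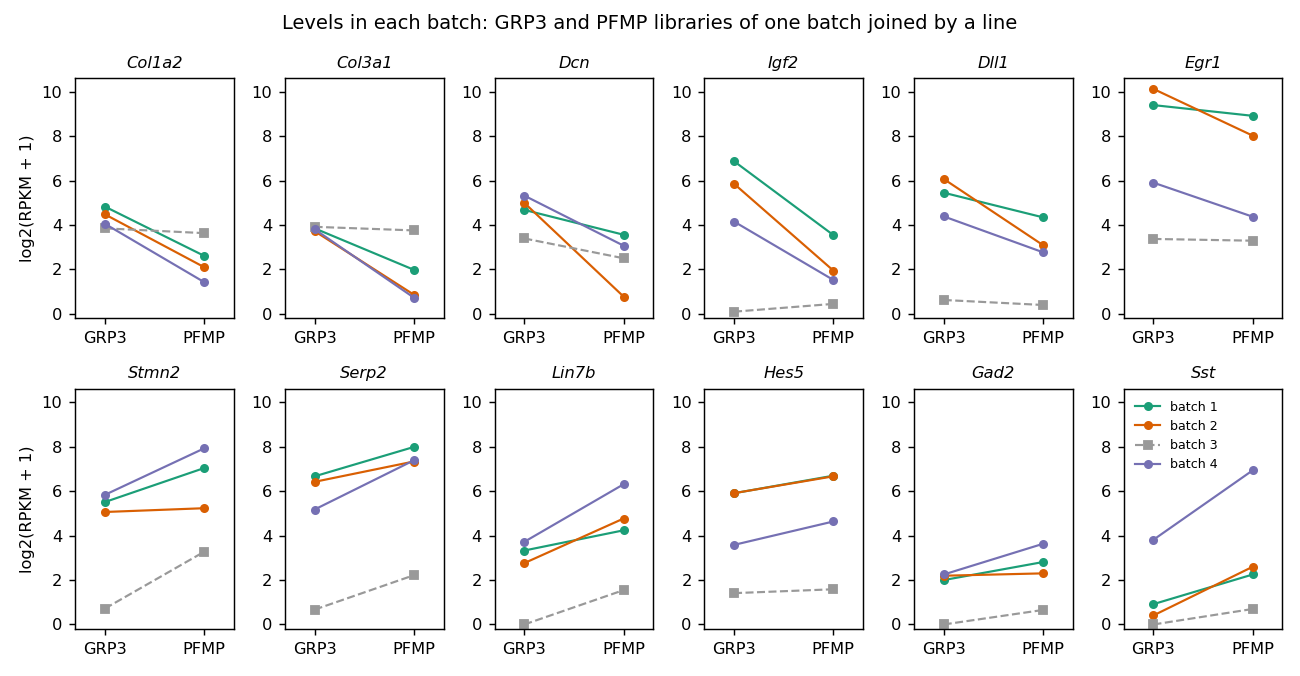
Level of 12 genes, log2(RPKM + 1), in GRP3 (left) and PFMP (right), where a line joins the libraries of 1 batch and batch 3 is dashed. The genes were chosen after their values were seen. The lines of the upper row slope down from GRP3 to PFMP except for Igf2 in batch 3, and those of the lower row slope up, by little for Stmn2 and Gad2 in batch 2.

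The other genes with the largest differences towards GRP3 were of mixed kinds. Ppic, a cyclophilin, had 40.3, 43.3, 2.63 and 11.5 RPKM in GRP3 and 16.2, 1.34, 1.41 and 8.86 RPKM in PFMP. Brpf3, Alg13, Fxyd5, Gm20721 and Ptges3l completed the 10, with mean differences from 1.13 to 1.21. For Gm20721 that mean rested on batch 4, where GRP3 had 154 RPKM and PFMP 8.13, and the other batches differed by little. Ptges3l had 28.4, 23, 1.67 and 3.88 RPKM in GRP3 and 14.1, 4.93, 1.29 and 0.976 RPKM in PFMP.

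Towards PFMP, neuronal genes were prominent. Stmn2, a stathmin of growing axons (chromosome 3 from 8509360 to 8561606), had 44.7, 32.5, 0.642 and 56.2 RPKM in GRP3 and 131, 36.7, 8.67 and 243 RPKM in PFMP. It was higher in PFMP in every batch, by the least in batch 2, with a mean difference of -1.59 ± 1.04 (SD, n = 4 batches). Lin7b, a scaffold of synapses (chromosome 7 from 45367891 to 45370583), had 9.06, 5.79, 0 and 12.2 RPKM in GRP3 and 17.9, 26.3, 1.92 and 78.5 RPKM in PFMP. Serp2, a protein of the endoplasmic reticulum (chromosome 14 from 76532814 to 76556889), had 101, 84.9, 0.59 and 35.2 RPKM in GRP3 and 254, 161, 3.65 and 167 RPKM in PFMP. For Serp2, each PFMP library other than PFMP 3 was above all GRP3 libraries, and its mean difference of -1.50 ± 0.54 was among the most even.

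Genes of inhibitory interneurons had the same direction. Sst, the somatostatin gene (chromosome 16 from 23889573 to 23890958), had 0.888, 0.327, 0 and 13.1 RPKM in GRP3 and 3.76, 5.06, 0.622 and 122 RPKM in PFMP. Gad2, an enzyme that makes GABA, had 3, 3.58, 0 and 3.76 RPKM in GRP3 and 6.02, 3.93, 0.573 and 11.4 RPKM in PFMP. Sp8, a factor of olfactory bulb interneurons, had 1.14, 0.581, 0 and 92 RPKM in GRP3 and 2.15, 0.949, 0.382 and 256 RPKM in PFMP. In each the PFMP library was higher within all 4 batches, and PFMP 4 was the highest of the 8 libraries.

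Over the list of neuroblasts and interneurons, 6 of 23 tested genes were higher in PFMP in all 4 batches (Stmn2, Gad2, Sp8, Sp9, Dlx6 and Igfbpl1) and 0 in GRP3. The median difference was -0.43, with -0.24, 0.12, -0.52 and -0.89 in batches 1 to 4, and -0.54 and -0.40 under the 2 scalings. Batch 2 did not share the direction. Dcx, the doublecortin gene, had 33.2, 30.7, 0.124 and 10.9 RPKM in GRP3 and 39.1, 26.4, 0.677 and 20 RPKM in PFMP. Sox11, a factor of young neurons, had 73.4, 97.6, 0.353 and 56.1 RPKM in GRP3 and 151, 64.9, 2.34 and 144 RPKM in PFMP. For both, GRP3 was higher in batch 2 and PFMP in the other batches. These genes were also present in GRP3, and Gap43, a growth cone protein, stood at 877, 1162 and 723 RPKM in GRP3 1, 2 and 4 and at 1201, 1008 and 1558 RPKM in PFMP 1, 2 and 4.

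A list of 15 neurite and growth cone genes, chosen after the values were seen, had a median difference of -0.63 and -0.26, 0.19, -1.11 and -1.36 in batches 1 to 4. Map1b and Kif1a were the 2 that were higher in PFMP in all batches. Map1b, a microtubule protein of axons, had 6.31, 6.29, 0.314 and 188 RPKM in GRP3 and 13.2, 10.9, 1.84 and 1056 RPKM in PFMP. Without batch 3 the median of the list was -0.45, and that of the neuroblast list -0.37, so batch 3 moved both further from 0. The counts higher in PFMP, 2 and 6, were the same without batch 3. Without batch 4 the median of the list was -0.36, and that of the neuroblast list -0.20.

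Other genes with the largest differences towards PFMP were Tst, Fxyd1, Lst1, Pcp4 and Gas7. Pcp4, a calmodulin-binding protein of neurons, had 84.3, 42.7, 0.526 and 31 RPKM in GRP3 and 89.9, 216, 3.71 and 130 RPKM in PFMP. Tst, a mitochondrial sulfur enzyme, had 0.732, 0.945, 5.54 and 5.64 RPKM in GRP3 and 1.99, 10.3, 6.06 and 105 RPKM in PFMP. Gas7, a growth arrest gene, had 454 RPKM in PFMP 4 and 28 in GRP3 4, and no more than 9.08 in the other 6 libraries. In Tst and Gas7 PFMP 4 was thus far above all the others. Lst1, a gene of leukocytes, had 2.58, 1.04, 91 and 0.486 RPKM in GRP3 and 13.6, 9.41, 103 and 5.63 RPKM in PFMP, and 1886 RPKM in a library of another population.

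Several astrocyte genes were highest in PFMP 4. Gfap, the intermediate filament of astrocytes, had 268 RPKM there, 8.8 in GRP3 4 and at most 1.32 in the other 6 libraries. Aldoc, an astrocyte form of aldolase, had 28.1, 15.8, 12.6 and 72.6 RPKM in GRP3 and 12, 71.3, 10.7 and 2344 RPKM in PFMP. Aqp4, the water channel of astrocyte endfeet, was higher in PFMP in all 4 batches, with 2.34, 3.29, 0.105 and 4.1 RPKM in GRP3 and 6.29, 4.16, 0.169 and 22 RPKM in PFMP. Over 23 tested astroglial and neural stem cell genes the median difference was -0.19, with 0.21, -0.14, -0.03 and -0.98 in batches 1 to 4, and 1 gene was higher in GRP3 and 2 in PFMP in all batches (2 and 4 without batch 3). The stem cell factor Sox2 leaned to GRP3, with 219, 231, 1.19 and 23.6 RPKM against 124, 74.3, 1.36 and 14.4 RPKM in PFMP. PFMP 4 also had the highest summed level of neuroblast genes, 1231 RPKM against 264 to 704 in the other 7 libraries. These levels stood beside its 44.4% of mitochondrial transcripts, whose part in them was not tested.

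Blood and immune genes were low in both populations in batches 1, 2 and 4. Microglial genes summed to 71, 63.2 and 66.2 RPKM in GRP3 1, 2 and 4 and to 54.2, 108 and 191 in PFMP 1, 2 and 4, against 266 to 19637 in BNAP/GRP1 and 1132 to 18829 in GRP2/MP3. In NSC the sum was also low, at 89.7 to 161. The median difference of the microglial genes was -0.30 (16 tested), and Tyrobp and P2ry13 were higher in PFMP in all 4 batches. Only 1 of 13 lung epithelium genes, 5 of 18 of ependyma and 1 of 10 of choroid plexus passed the filter. Median differences were -0.50 for 10 tested myeloid genes, -0.84 for 4 erythroid genes and 0.30 for the ependymal genes, and PFMP 2 had the most erythroid RNA of these 6 libraries (755 RPKM against 99.3 to 330).

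The genes that the study lists as upregulated against NSC were followed as a description, since the study chose them on these same libraries. Of 258 genes listed for both GRP3 and PFMP, 182 were tested, with a median difference of 0.23. The 98 tested genes listed for GRP3 alone (of 182) were higher in GRP3 for 88.8%, 80.6%, 71.4% and 81.6% of genes in batches 1 to 4, and 37 in all 4 batches. For the 176 tested genes listed for PFMP alone (of 269), the share higher in GRP3 was 68.2%, 27.3%, 28.4% and 36.9%, and 16 were higher in PFMP in all 4. Over all 15144 genes that share was 66.2%, 50.2%, 46.2% and 54.3%, so the PFMP list of batch 1 was near the share of all genes. Among the transcription factors that the study names for GRP3, Zfp157 and Rfx7 were higher in GRP3 in all 4 batches and Sox12 and Etv5 in all but batch 3. Zfp157 had 28.7, 25.4, 2.94 and 17.6 RPKM in GRP3 and 14.8, 14.8, 2.51 and 7.83 RPKM in PFMP. Of the 5 named for PFMP, 3 were tested, with a median difference of 0.09, or 0.00 without batch 3. Of the 3, only Rxrg, a retinoid receptor, was higher in PFMP in all 4 batches, and 0 were higher in GRP3 in all 4. Rxrg had 3.05, 2.23, 0 and 4.98 RPKM in GRP3 and 5.2, 3.86, 0.417 and 40 RPKM in PFMP. Lhx6 did not pass the filter, with 0.0914, 0.0539, 0 and 2.29 RPKM in GRP3 and 0.0885, 3.79, 0.121 and 4.4 RPKM in PFMP. The 4 network genes that the study names for both had a median difference of 0.54, and the 4 it names for PFMP one of -0.06.

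Batch 3 was a case of its own. Between its libraries only 3.36% of genes differed by more than 2-fold, against 25%, 41.7% and 36.7% in batches 1, 2 and 4, and all populations of that batch had an r of at least 0.939 with GRP3 3 or PFMP 3. Globin genes led, with 100178 RPKM of Hbb-bs in GRP3 3 and 102862 in PFMP 3, and the erythroid list summed to 246191 and 251701. Lyz2, the lysozyme of macrophages, had 22528 and 22018 RPKM, and the genes of alveolar macrophages and inflammatory myeloid cells summed to 47596 and 47524, against 38.5 to 129 in the 6 libraries of the other batches. Lung epithelium genes summed to 1212 and 1258 RPKM, mostly from Scgb1a1 (904 and 947 RPKM), the secretoglobin of club cells. Scgb1a1 was at 0 in GRP3 1, GRP3 2 and all PFMP libraries of the other batches and at 0.887 in GRP3 4. The microglial markers P2ry12 (0.915 and 0.951 RPKM) and Cx3cr1 (1.18 and 0.549) were near 0, while Tyrobp, which macrophages share with microglia, was at 1375 and 1406. Of the 10 most abundant genes of batch 3 the others were mt-Atp8, mt-Co2, Hba-a1, Hba-a2, Hbb-bt, the ferritins Fth1 and Ftl1, and Saa3, an acute phase protein.

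**Figure D5:**
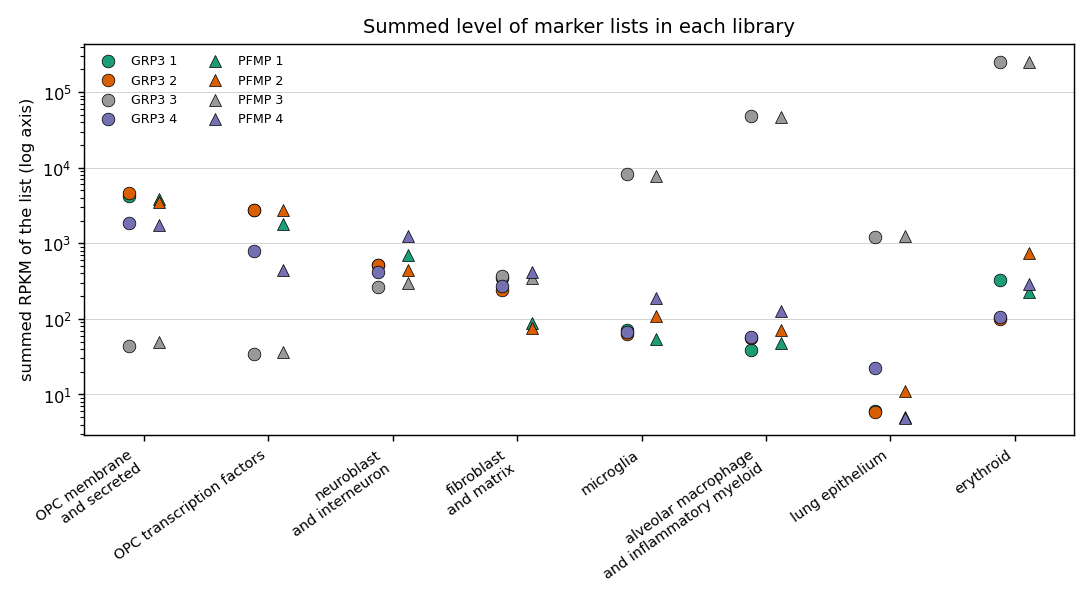
Summed RPKM of marker lists in each library on a log axis (circles GRP3, triangles PFMP, colour by batch). In batch 3 (grey) the OPC lists are the lowest, at 34.6 to 49.4 RPKM, and the microglia, myeloid, lung and erythroid lists the highest in both populations. In the other batches the OPC membrane list is the highest in every library, and the neuroblast list of PFMP 4 (1231 RPKM) exceeds its OPC transcription factors (446).

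Within batch 3, 237 genes were over 2-fold higher in GRP3 and 272 in PFMP. Gap43 had 1.6 RPKM in GRP3 3 and 22.5 in PFMP 3, with 2.8 to 17.8 in the other populations of the batch. Stmn2 had 0.642 and 8.67 RPKM, with 1.33 to 7.29 in the others. Dcx (0.124 and 0.677), Sox11 (0.353 and 2.34) and Stmn1 (22.5 and 62.6) had the same order. Of the OPC membrane genes 19 of 29, and of the OPC transcription factors 10 of 18, were also higher in PFMP 3. GRP3 3 thus had the lowest Gap43 and Stmn2 of the 5 populations of batch 3. The other protein-coding genes with the largest batch 3 differences towards PFMP were Hist1h2ae, Gm20537, Gm4245, Cxx1c, Gm10130, Dynlt1a, Kantr and Morn3. Those towards GRP3 were Gm21987, Hist1h3d, Gm10718, Hist1h4d, Tmem265, Gm11032, Gm10401, Gm2026, Sapcd1 and 1810049J17Rik, of which Gm10401 was higher in GRP3 in all 4 batches (2.2, 4.89, 3.38 and 18.2 RPKM against 0, 0, 0 and 4.84). Each is a difference between 2 libraries and has no replicate check.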

How the data were processed

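The RPKM values were deposited by the authors as 1 table of 45705 genes. Per the study's methods and the submitters' processing notes, the tools were FastQC 0.11.9 for read quality, cutadapt 3.4 for adapters, STAR 2.6.1 for alignment on GRCm38 and Salmon 1.9.0 for the quantities. The gene lengths, the read totals, the annotation release and the handling of strand and of reads that fit several genes were not given for the RPKM in the sources used here. A further 26 columns, empty in every row, were left out. Genes were joined by identifier, since 94 names are not unique.

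Values were taken as log2(RPKM + 1), a scale that understates the change of low genes. Genes of 1 RPKM or more in 4 or more of these 8 libraries were fitted in R 4.3.3 with limma 3.58.1 (trended prior), with the batch as a replicate block, since the labels mark a shared batch and the deviations of GRP3 and PFMP from their means correlated at 0.513, 0.267, 0.925 and 0.582 in batches 1 to 4. Adjustment of p was by Benjamini-Hochberg, over 15144 genes. A list is described by its median and counts beside those of all genes. Members and lists were chosen with earlier results of these data known, and the fibroblast and neurite lists after these values were seen. Named genes are list members, called genes, the 10 largest mean differences each way among protein-coding genes with 1 direction in all batches and at least 10 RPKM, the 20 highest shared scores, and, in batch 3, the 10 largest differences each way and the 10 most abundant genes. Genes outside these rules (Mir8091, Gm17014, Gm27956) were named after their values were seen. Some genes that meet the rules are not reported here.

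Reads behind low values were recovered as the smallest whole numbers that give a gene's 8 values at the relative depths. The 8 values came out whole within 0.05 for 278 of 735 low genes tried (37.8%), so no count test was run. Positions and biotypes are those of GENCODE vM21, which held 15067 of the 15144 genes. The fit was tested on simulated data. Python 3.11.15, pandas 2.3.3 and matplotlib 3.10.9 made the summaries and figures.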

Additional observations from a re-analysis of the deposited data

Results flagged for a closer look

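Each quantity with 4 values in a population or over the 4 batches was searched for a value far from the other 3, by its gap over the range against Dixon's critical value. Of 111 such groups 25 passed, where chance gives about 1 in 20, and among 712 combinations of a list gene and a population 99 did. Nearly all set batch 3 apart, and no explanation was tested.

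GRP3 3 had the highest relative depth in its population (3.2). Its median log2 levels were the lowest for the sorting antigens (0.99), committed precursor genes (1.28), astroglia (1.68), glutamate and GABA receptors (0.03), synapse organisers (0.1), the network genes that the study names for both (0.95) and fibroblast genes (1.5), and the highest for microglia (6.57), myeloid (9.36) and erythroid genes (11). PFMP 3 was lowest for committed precursor genes (1.09), PDGF and FGF genes (0.46), mitosis genes (1.93), receptors (0.08) and synapse organisers (0.17), and highest for myeloid (9.26) and lung genes (2.09).

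PFMP 1 stood above the other PFMP libraries for choroid plexus genes, at a median of only 0.25. Among the GRP3 minus PFMP differences, batch 3 stood apart for the fibroblast list (0.12), Lst1 (-0.18) and Col1a2 (0.22), each nearer to 0 than the other batches. Batch 4 stood apart for the myeloid list (-1.41), Gas7 (-3.97) and Gm20721 (4.09).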

How the results depend on the processing

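The single call higher in GRP3 was lost (0 calls) without the replicate block, with all 20 libraries in the model, with no filter, with a mean RPKM of at least 5, under both scalings and without any 1 batch (0 to 0 calls). It held with a pseudocount of 0.1, a prior without trend and the GC adjustment. Over these settings the adjusted p of n-R5s205 ranged from 0.0434 to 1. Library weights (arrayWeights), under which it was 3e-06, gave 432 calls in GRP3 and 397 in PFMP, at weights of 15.43 for both libraries of batch 3 and 0.302 to 0.557 for the others, so these calls rest on batch 3. Batches 1 and 2 alone, chosen after seeing the data, gave 12 and 16.

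At an unadjusted p under 0.05, the 234 genes higher in GRP3 became 51 without the replicate block, 91 with 20 libraries, 109 with the mean filter, 138 and 135 under median-of-ratios and quantile scaling, 1377 with weights, 155 in batches 1 and 2, and 82 to 372 without 1 batch (82 without batch 4, 372 without batch 1). The 55 higher in PFMP became 1, 34, 98 (ratios), 129 (quantile), 1272 (weights), 170 (batches 1 and 2) and 53 to 289 (289 without batch 1). Counts by direction, 1052 and 268, became 2249 and 517 without batch 3, 1890 and 694 without batch 4, 4071 and 1480 in batches 1 and 2, 578 and 579 with ratios, and 601 in PFMP with quantiles (712 in GRP3), all settings chosen after seeing the data.

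The medians of the OPC, committed precursor and myelin lists moved by less than the SD between batches, which is wide (OPC membrane genes had 0.06 to 0.4 without 1 batch), except myelin genes, at -0.27 to 0.18 without 1 batch (-0.27 without batch 1). Of 372 named genes, 114 changed sign with weights, 63 without batch 4, 50 without batch 2, 42 without batch 1, 35 and 25 under the scalings, 75 of 371 in batches 1 and 2 alone, and 14 or fewer under each other setting. Where not stated, the cause was not tested.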
